A study of Mus musculus with 12 samples.

Results

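The immediate early genes outside the AP-1 families were examined in the ribosome-bound RNA of the small intestinal muscularis before and shortly after injury. They were taken by name from the count table and comprised the zinc finger factors Egr1, Egr2 and Egr3, the nuclear receptors Nr4a1, Nr4a2 and Nr4a3, the immediate early response genes Ier2, Ier3 and Ier5, and Csrnp1. All 10 were present among the 12975 genes of the table. Immediate early genes are transcribed within minutes of a stimulus by factors that are already present in the cell, without the need for new protein, and many of their transcripts are short-lived. EGR proteins bind GC-rich promoter sites and are held in check by NAB corepressors. NR4A proteins are orphan nuclear receptors whose activity follows mainly from their amount rather than from a known hormone, and in glia and other tissue cells both families rise with growth factors, cytokines and mechanical stress.

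The muscularis externa, the muscle coat of the gut with the enteric ganglia, came from PLPCreERT2 Rpl22HA mice on the B6J.129(Cg)-Rpl22tm1.1Psam/SjJ background. In these mice a tamoxifen-inducible Cre that is active in enteric glial cells (EGCs) switches the ribosomal protein Rpl22 to an HA-tagged form, so that anti-HA antibody recovers ribosomes of the cells that carried Cre. All animals, controls included, were female and received 2 intraperitoneal injections of 100 µl of 15 mg/ml tamoxifen in Miglyol 812 at 10 to 12 weeks of age and were killed 3 to 4 weeks after the first. Mice were either naive (T0, animals 1, 2 and 4) or taken 3 h after intestinal manipulation, a surgical handling of the bowel that causes muscularis inflammation (T3, animals 1, 3 and 4, which were other mice than those of T0). Homogenate of each animal was split between anti-HA (HA) and a control IgG1 antibody (IgG), giving 4 groups of 3 libraries from 6 mice. No sham-operated libraries were used here, so anaesthesia, laparotomy and handling of the bowel cannot be told apart.

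Totals ran from 1221788 to 2870591 counts after HA and from 88136 to 1289833 after IgG, and the IgG T3 libraries were the shallowest. Levels are given as CPM, a count divided by the total of its library and scaled to 1e6. By counting error alone, a count of 0 allows a level of up to 1.05 CPM at the largest total and 34.0 CPM at the smallest. Glia markers checked the pull-down: at T0 HA exceeded IgG for 11 of 11 tested and at T3 for 8 of 11, and their summed level was 3769.9 to 4689 CPM in HA T0 and 197 to 266 CPM in IgG T0. The HA fraction was not free of other cells. Smooth muscle markers summed to 18470.5 to 35999.7 CPM in HA against 56802 to 91375 CPM in IgG, and 4 of 5 markers of interstitial cells of Cajal, the pacemaker cells of the gut, were also higher in HA at T0. In bulk samples of this kind a change in the number of cells and a change in RNA per cell cannot be told apart.

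At 3 h, 9 of the 10 early genes were far more abundant in HA than at T0. Together the 10 genes took up 0.0393% ± 0.0036 of all counts in HA T0 (SD, n = 3) and 0.519% ± 0.0668 in HA T3. Their summed level was 354 to 426 CPM in the HA T0 libraries and 4631 to 5931 CPM in the HA T3 libraries, so that the groups were separated by a wide gap. Ier5 was the exception and stayed at a few counts in every library. Of the 9 genes that passed the filter on low counts, 9 were higher at T3 than at T0 by edgeR's quasi-likelihood test with Benjamini-Hochberg adjustment over all 9441 genes, beside 18.7% of all genes tested in that direction. The filter bears on that count: Egr2, Egr3, Nr4a2 and Nr4a3 reached it only with their T3 libraries, and Ier5 did not reach it, so 9 of 9 does not speak for all 10. The CPM of 9 of the 10 did not overlap between HA T0 and HA T3 and were higher at T3, beside 15.6% of genes tested. The median log2 fold change was 4.57 over the 9 genes and -0.016 over all genes. With library totals in place of TMM scaling the median over all genes was -0.28 and that of the 9 genes 4.31. That scaling also shifted the calls over all genes, of which 1208 of 3849 were then higher, against 1765 of 3187 with TMM, while all 9 early genes kept their call.

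**Figure D1:**
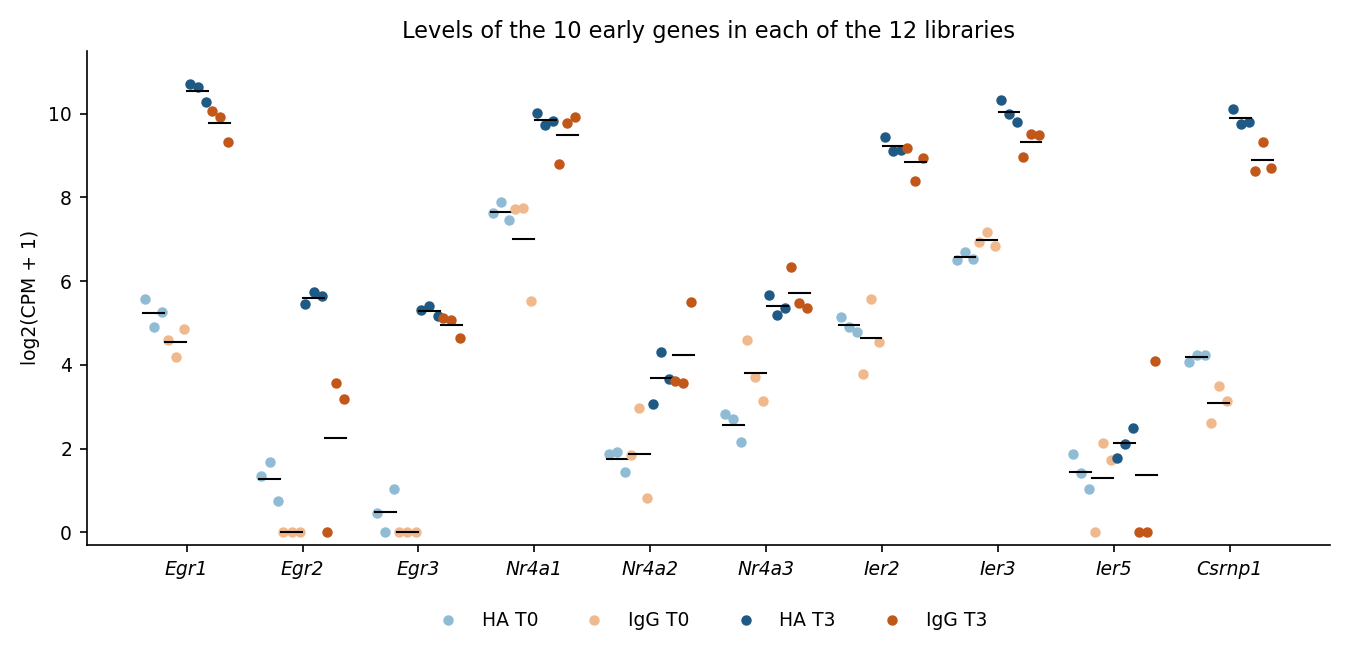
Level of each early gene in the 12 libraries as log2(CPM + 1), where 1 point is 1 library and the black line is the mean over the 3 libraries of a group (light blue, HA T0; light orange, IgG T0; dark blue, HA T3; dark orange, IgG T3). Within a pull-down the T3 points lie above the T0 points for every gene except Ier5, whose groups overlap, and Egr2 in IgG, where 1 T3 library has no count.

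Among the EGR genes, Egr1, the best known factor of the family, was the most abundant. It stood at 46.8, 29.1 and 37.3 CPM in the HA T0 libraries of animals 1, 2 and 4 and at 1674, 1589.5 and 1240.3 CPM in the HA T3 libraries of animals 1, 3 and 4. Each T3 library was thus more than an order of magnitude above each T0 library. The log2 fold change was 5.56 ± 0.23 (SE), a 47.2-fold rise with an adjusted p of 4.9e-13, and Egr1 moved from rank 4414 to rank 69 among the 12975 genes by mean CPM.

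Egr2 (chr10:67535475-67542188, plus strand, GRCm38), known from Schwann cells as a driver of myelin genes, was close to the detection limit in naive tissue. It had 2 to 4 counts per library at HA T0 and 52 to 78 at HA T3, or 1.54, 2.23 and 0.697 CPM against 42.6, 52.2 and 49.1 CPM. The fitted log2 fold change was 5.31 ± 0.37 (adjusted p = 7.1e-10), and the ratio of the summed counts was 35.0 with a 95% counting interval of 18.6 to 74.2. Such intervals hold counting error only and leave out the spread between animals. Egr3 (chr14:70077203-70082614, plus strand) followed the same course from a lower start, with 1, 0 and 3 counts at HA T0 and 47, 62 and 45 at HA T3. Its fitted log2 fold change of 6.23 ± 0.45 (adjusted p = 1.2e-09) was the highest of the 9, but with 4 counts in all at T0 the interval of the ratio ran from 26.8 to 260 around 69.9. The order of Egr3, Csrnp1, Egr1 and Egr2 by fold is therefore not settled at this depth. Egr2 has several RefSeq start sites, and 3 of them hold the same CArG box and flanking motifs. The bases before one of these (chr10:67537709-67537868, plus strand, GRCm38.p6) are shown. Capitals mark a CArG box, the site of serum response factor, and on either side of it the 5-base core of the cAMP response element.
Egr2: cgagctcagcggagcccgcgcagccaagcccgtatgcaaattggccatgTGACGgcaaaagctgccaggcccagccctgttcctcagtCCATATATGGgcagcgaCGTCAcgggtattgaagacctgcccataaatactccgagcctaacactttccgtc

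The NR4A genes had the lowest fitted fold changes of the 9, and they started from very different levels. Nr4a1 (chr15:101254269-101274795, plus strand), also called Nur77, was the most abundant of the 10 genes in naive HA libraries with 198, 235 and 174 CPM, and reached 1037, 845 and 902 CPM at T3. Its log2 fold change of 2.46 ± 0.18 (5.49-fold, adjusted p = 2.3e-09) was the lowest of the 9. In rank it went from 961 to 158.

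Nr4a2 (chr2:57106830-57124003, minus strand), or Nurr1, a factor of dopaminergic neurons and of inflammation control, was scarce throughout. It had 2.69, 2.79 and 1.74 CPM at HA T0 and 7.37, 18.7 and 11.7 CPM at HA T3, from 5 to 7 and from 9 to 28 counts. The libraries of T3 differed among themselves by more than 2-fold, yet the lowest was above the highest at T0, and the log2 fold change was 2.67 ± 0.46 (adjusted p = 0.000144). Nr4a3 (chr4:48045153-48086447, plus strand), or Nor-1, rose from 6.14, 5.59 and 3.48 CPM to 49.9, 35.4 and 39.7 CPM, a log2 fold change of 3.30 ± 0.31 (adjusted p = 6.5e-08).

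All NR4A promoter windows held several copies of the cAMP response element core, and stretches of the 3 genes are shown. Capitals mark these cores and, in Nr4a1 and Nr4a2, 1 EGR site each. They lie at chr15:101266686-101266845 (plus strand), chr2:57124004-57124163 (minus strand) and chr4:48045055-48045152 (plus strand) of GRCm38.p6.
Nr4a1: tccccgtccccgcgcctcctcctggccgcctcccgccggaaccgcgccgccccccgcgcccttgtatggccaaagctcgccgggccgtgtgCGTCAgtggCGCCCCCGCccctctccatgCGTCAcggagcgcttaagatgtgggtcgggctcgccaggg
Nr4a2: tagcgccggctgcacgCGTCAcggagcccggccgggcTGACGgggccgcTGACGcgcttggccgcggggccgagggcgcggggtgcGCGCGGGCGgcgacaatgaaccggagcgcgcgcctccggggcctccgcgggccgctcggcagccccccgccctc
Nr4a3: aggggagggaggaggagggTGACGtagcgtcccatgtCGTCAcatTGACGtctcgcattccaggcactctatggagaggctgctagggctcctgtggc

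The IER genes share a name rather than a protein fold. Ier2 and Ier3 rose in HA, while Ier5 had too few counts to tell. Ier2 (chr8:84661331-84662852, minus strand), a small nuclear protein encoded by 1 exon, rose from 34.6, 29.1 and 26.5 CPM to 689, 548 and 558 CPM in HA (log2 fold change 4.57 ± 0.21, 23.8-fold, adjusted p = 1.2e-12). Ier3 (chr17:35821684-35822923, plus strand), a target of NF-kB that bears on cell survival, rose from 89.8, 103 and 90.6 CPM to 1279, 1011 and 895 CPM (log2 fold change 3.75 ± 0.19, 13.5-fold, adjusted p = 8.6e-12). Neither gene had overlapping libraries between the times.

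Ier5 (chr1:155096361-155099636, minus strand), a regulator of heat shock factor, did not pass the filter in any comparison. Its HA libraries held 7, 3 and 3 counts at T0 and 3, 5 and 6 at T3, which is 2.69, 1.68 and 1.05 CPM against 2.46, 3.34 and 4.67 CPM, and the groups overlapped. The ratio of the summed counts was 1.96 with a counting interval of 0.852 to 4.52, and without a filter the log2 fold change was 1.21 ± 0.68 with an adjusted p of 0.20. A change within that interval was not detectable at this depth. The windows of Ier3 (chr17:35821524-35821683, plus strand) and Ier5 (chr1:155099637-155099796, minus strand) are also shown. The first holds an NF-kB site in capitals and the second has no match to any of the motifs marked. Whether such matches bear on the levels of either gene was not tested.
Ier3: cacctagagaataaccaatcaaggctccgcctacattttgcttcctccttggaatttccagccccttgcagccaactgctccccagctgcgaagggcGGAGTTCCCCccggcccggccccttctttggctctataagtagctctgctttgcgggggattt
Ier5: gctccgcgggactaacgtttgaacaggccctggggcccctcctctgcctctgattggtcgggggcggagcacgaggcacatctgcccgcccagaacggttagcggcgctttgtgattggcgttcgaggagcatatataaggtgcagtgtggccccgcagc

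Csrnp1 (chr9:119971163-119984658, minus strand), a cysteine- and serine-rich nuclear protein, had the lowest adjusted p of the 10 genes. It stood at 15.7, 17.9 and 17.8 CPM at HA T0 and at 1111, 864 and 895 CPM at HA T3. The naive libraries lay close together, and the log2 fold change was 6.07 ± 0.21 (67.0-fold, adjusted p = 8.6e-14). Csrnp1 went from rank 6823 to rank 151, so that at T3 it was about as abundant as Nr4a1, from which it had differed by more than 10-fold at T0. Counts were taken over a window of the same length at each 3′ end rather than over whole transcripts. Other differences in capture between genes were not checked, so levels of different genes compare only roughly.

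**Figure D2:**
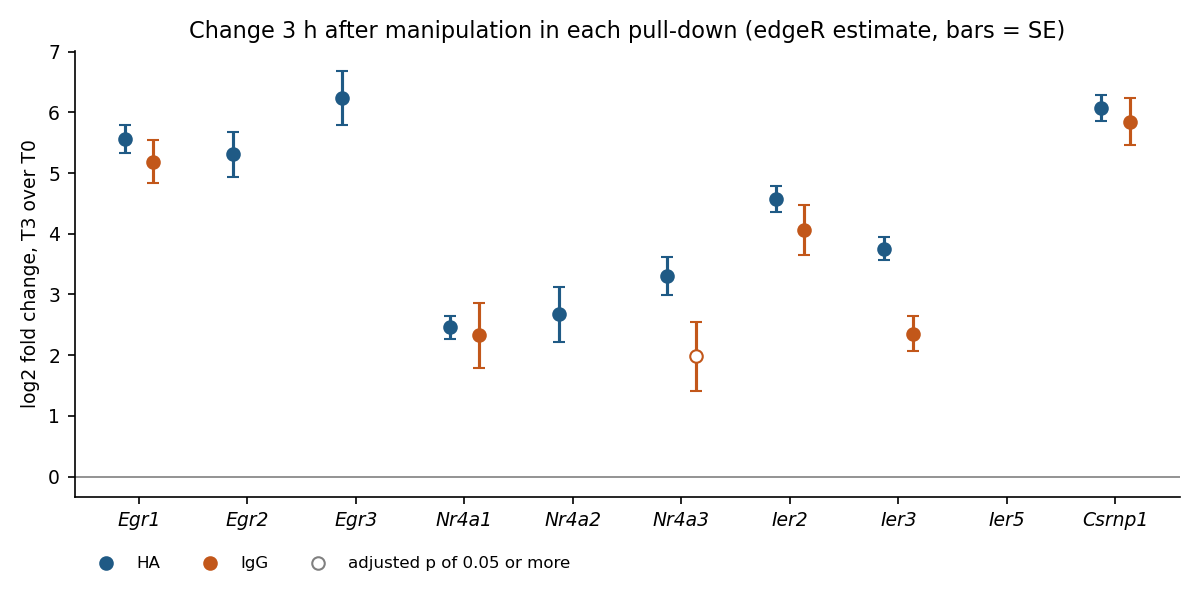
Log2 fold change from T0 to T3 in the HA libraries (blue) and in the IgG libraries (orange) by edgeR, with bars of 1 SE and 3 libraries per group and time. Filled points passed an adjusted p of 0.05 and the open point (Nr4a3 in IgG, 1.98) did not, while genes without a point in a pull-down were not tested there.

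Gene structure, which was not used to choose the members, was compact in the EGR and IER genes but not in all members. Egr1 lies at chr18:34859823-34864984 on the plus strand, and the places of the others are given above. In the Gencode annotation their principal transcripts had 1 to 8 exons with a median of 2, below the median of 9 over the 12193 annotated genes of the table in 10 of 10 cases. The NR4A genes had 8 exons each, next to that median. The gene length had a median of 6063 bases against 24239 over all, with only Nr4a3 (41295 bases) above that. Nr4a1, Nr4a2 and Csrnp1 (20527, 17174 and 13496 bases) also lay within the quartiles of all genes, 10217 to 59114 bases. The transcripts themselves were not short, with a median of 3120.5 bases beside 2971. No other annotated gene had an exon in the counting window of any of the 10.

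Promoter windows from 250 bases before to 50 after the start were matched by symbol for 7 of the 10 genes, with several start sites for Egr2 and Csrnp1. Egr1, Egr3 and Ier2 had no entry. On both strands, the core of the cAMP response element (TGACG) was found in 5 of the 7 genes (Egr2, Nr4a1, Nr4a2, Nr4a3 and Csrnp1), beside 23.0% of all genes with a window. The full element (TGACGTCA), which contains the core, was found in 0 of 7 beside 2.03%. The CArG box was found in Egr2 alone (1.81% of all genes), at 4 of its 5 start sites. The EGR site (GCGNGGGCG) was found in Nr4a1 and Nr4a2 (6.27% of all genes), the NF-kB site in Egr2, Nr4a1 and Ier3 (9.55%), the TATA box (TATAAA) in Nr4a2 (15.7%) and the NR4A site (AAAGGTCA) in none (1.70%). Such matches describe letters in a window and show neither binding nor its absence.

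**Figure D3:**
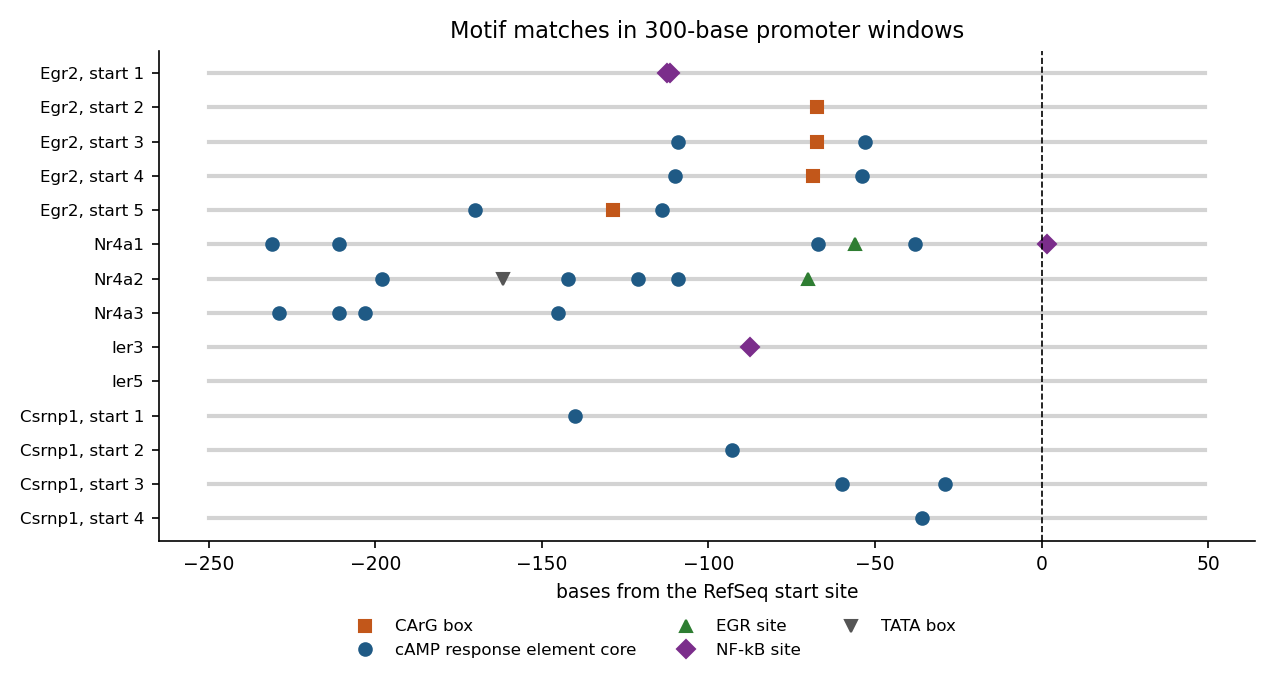
Positions of motif matches on either strand in the promoter windows of the 7 genes with an entry, with the start site at 0 on the horizontal axis in bases. Each grey line is 1 RefSeq start site, blue circles are cores of the cAMP response element, and the orange squares are CArG boxes, which lie in 4 of the 5 Egr2 windows.

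To ask whether the rise was particular to the tagged ribosomes, the same times were compared in the IgG libraries of the same animals. The early genes rose there too. Their summed level was 228 to 454 CPM in IgG T0 and 3109 to 3640 CPM in IgG T3. Of 6 genes tested, 5 were higher at T3 (Egr1, Nr4a1, Ier2, Ier3 and Csrnp1), beside 4.43% of the 5219 genes tested, and the median log2 fold change of the 6 was 3.21 against -0.023 over all genes. Of the 6, Egr1, Nr4a3, Ier2 and Csrnp1 passed the filter only with their T3 libraries. The CPM of 8 of the 10 genes were higher at T3 without overlap, beside 13.4% of genes tested. Among the 8 were Egr3 and Nr4a2, which did not pass the filter. In the IgG T3 libraries of animals 1 and 3, 1 count of Nr4a2 was 11.3 and 10.9 CPM. That is above its highest T0 level of 6.86 CPM, so 1 count in these libraries was enough to leave the T0 range.

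Egr1 went from 23.2, 17.1 and 27.9 CPM in IgG T0 to 1067, 967 and 639.8 CPM in IgG T3 (log2 fold change 5.19 ± 0.35, 36.4-fold, adjusted p = 6.0e-07). Csrnp1 went from 5.15, 10.3 and 7.75 CPM to 397, 641 and 418 CPM (5.85 ± 0.38, 57.6-fold, adjusted p = 4.8e-07). No T3 library of either gene came near the T0 range. Ier2 rose from 12.9, 46.3 and 22.5 CPM to 579, 337 and 487 CPM (4.07 ± 0.41, adjusted p = 2.8e-05). Ier3 rose from 121, 144 and 114 CPM to 499, 728 and 720.3 CPM, a log2 fold change of 2.35 ± 0.29 (adjusted p = 0.000176) against 3.75 ± 0.19 in HA.

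Nr4a1 was less certain in IgG. Its T0 libraries lay at 209, 214 and 45.0 CPM and its T3 libraries at 442, 869 and 962 CPM, so animal 4 at T0 stood well below the other naive animals. The log2 fold change of 2.33 ± 0.54 had an adjusted p of 0.0339, which was 0.102 under the filter of at least 5 counts in 1 library, 0.0507 without IgG T0 replicate 2, 0.201 without IgG T3 replicate 3 and 0.154 without IgG T3 replicate 4. Nr4a3 went from 23.2, 12.0 and 7.75 CPM to 79.4, 43.5 and 40.2 CPM with 4 to 10 counts per T3 library, a log2 fold change of 1.98 ± 0.57 (adjusted p = 0.0610). The remaining genes had too few counts for the filter. In IgG T0 no library held a count of Egr3, and in IgG T3 there were 3, 3 and 6. The rise was 21.1-fold when the T0 group is set to a floor of 3 counts, and the lower end of its counting interval was 14.7-fold. Nr4a2 had 6 counts at T0 and 13 at T3, of which 11 came from animal 4. Egr2 had 0 counts at T0 and 3 at T3, and Ier5 had 5 and 4.

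Markers of other cells were measured beside these changes. Of the 8 neutrophil and monocyte markers, 3 were in the table, and they summed to 1.39 to 5.59 CPM in HA T0, 18.1 to 116 CPM in HA T3, 8.53 to 17.1 CPM in IgG T0 and 21.7 to 249.6 CPM in IgG T3. S100a8 and S100a9 had no count in IgG T0, where 0 counts allow up to 2.33 to 7.73 CPM. Lower at T3 in HA were 15.1% of all genes tested. Macrophage markers fell in HA for 4 of 9 tested, from 485 to 855 CPM at T0 to 226 to 393 CPM at T3, and smooth muscle markers for 4 of 13. Mesothelial markers fell for 5 of 5 tested in HA and 5 of 5 in IgG, and fibroblast markers for 5 of 7 and 2 of 7. Of the interstitial cell of Cajal markers, Kit, Ano1 and Thbs4 (3 of 5 tested) fell in HA, and the summed level went from 3147 to 4185 CPM at T0 to 1566 to 2159.9 CPM at T3. Of the neuron markers 5 of 12 tested rose in HA (Uchl1, Tubb3, Vip, Tac1 and Syt1), with a summed level of 1162 to 1331 CPM at T0 and 1281 to 2099.8 CPM at T3. Glia markers summed to 253 to 1123 CPM in IgG T3, against 197 to 266 CPM in IgG T0, and Gfap was the 1 of 4 tested that rose there. In HA, 3 of 11 glia markers rose (S100b, Gfap and Sox2) and Gpr37l1 fell. The part of such shifts in the rise of the early genes was not tested.

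HA and IgG of the same animals were then compared at each time, which asks how far a transcript was enriched with the tagged ribosomes. The main test held no term for the animal and so took HA and IgG of 1 animal as independent. In naive tissue none of the early genes passed it in either direction. With the animal as a block 1 gene, Nr4a3, was lower in HA. Of 6 tested, 0 were higher in HA by edgeR (0 also by DESeq2), beside 16.0% of genes tested, and 0 were lower, beside 14.4%, with 3 at an unadjusted p under 0.05. Over all 10, 3 genes were higher in HA without overlap, beside 24.7% of genes tested, and 2 were lower, beside 20.1%. Among the former was Egr2, for which 0 counts in IgG T0 allow up to 2.33 to 7.73 CPM, above its HA levels, so that no difference was detectable for it. The median log2 difference was 0.26, against 4.23 for the glia markers and -1.49 for the smooth muscle markers.

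Csrnp1 leaned to HA at T0, with 15.7, 17.9 and 17.8 CPM against 5.15, 10.3 and 7.75 CPM in IgG (log2 difference 1.07 ± 0.40, adjusted p = 0.0564). Csrnp1 passed the filter here only with its HA libraries, and its IgG libraries held 2, 6 and 10 counts. Egr1 was higher in HA by 0.67 ± 0.31 on the log2 scale (adjusted p = 0.120). Nr4a3 leaned the other way, with HA to IgG ratios of 0.265, 0.466 and 0.449 in animals 1, 2 and 4. Its log2 difference was -1.34 ± 0.52 (adjusted p = 0.0623), and with the animal as a block, since both libraries came from 1 homogenate, it was -1.43 with an adjusted p of 0.0202. Ier3 was also lower in HA in each animal (-0.44 ± 0.20, adjusted p = 0.110), whereas Nr4a1 (0.41 ± 0.58, adjusted p = 0.647) and Ier2 (0.11 ± 0.36, adjusted p = 0.849) had ratios on both sides of 1.

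At 3 h Egr1, Egr2, Ier3 and Csrnp1 were more abundant in HA. These were 4 of 8 tested, beside 11.8% of the 7200 genes tested, and none was lower. Over all 10, 5 were higher in HA without overlap, beside 19.4% of genes tested. The median log2 difference of the 8 was 0.65, between 2.83 for the glia markers and -2.10 for the smooth muscle markers.

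Egr2 had 193 counts in the HA T3 libraries and 3 in the IgG T3 libraries, and it passed the filter only through HA, where it is high. Its log2 difference was 2.83 ± 0.66 (adjusted p = 0.00457), a call that held when any library was left out, and the ratio of the summed counts was 6.89 with a counting interval of 2.32 to 33.7. Csrnp1 was 2.80, 1.35 and 2.14 times as high in HA as in IgG in animals 1, 3 and 4 (log2 difference 1.09 ± 0.27, adjusted p = 0.00728, and 0.0515 without HA T3 replicate 1). Egr1 was 1.57, 1.64 and 1.94 times as high (0.87 ± 0.27, adjusted p = 0.0274), but its adjusted p was 0.132, 0.125 and 0.0731 without HA T3 replicate 1, 3 or 4, and 0.0511 with library totals as scaling.

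Ier3 was 2.56, 1.39 and 1.24 times as high in HA at T3 (0.79 ± 0.27, adjusted p = 0.0426). Its adjusted p was 0.179, 0.109 and 0.0846 without HA T3 replicate 1, 3 or 4, 0.0755 without IgG T3 replicate 1 and 0.0709 with library totals. Egr3 stood at 38.5, 41.5 and 35.0 CPM in HA and 34.0, 32.6 and 24.1 CPM in IgG (0.51 ± 0.46, adjusted p = 0.466), a difference not detectable with 3 to 6 counts per IgG library. Nr4a1 (0.36 ± 0.29, adjusted p = 0.404) and Ier2 (0.44 ± 0.27, adjusted p = 0.273) overlapped between the pull-downs, as did Nr4a3 (-0.20 ± 0.42, adjusted p = 0.784). Nr4a2 had 52 counts in HA and 13 in IgG, a ratio of 0.429 with a counting interval of 0.230 to 0.858, but 11 of the 13 came from animal 4. Ier5 had 14 counts in HA T3 and 4 in IgG T3.

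**Figure D4:**
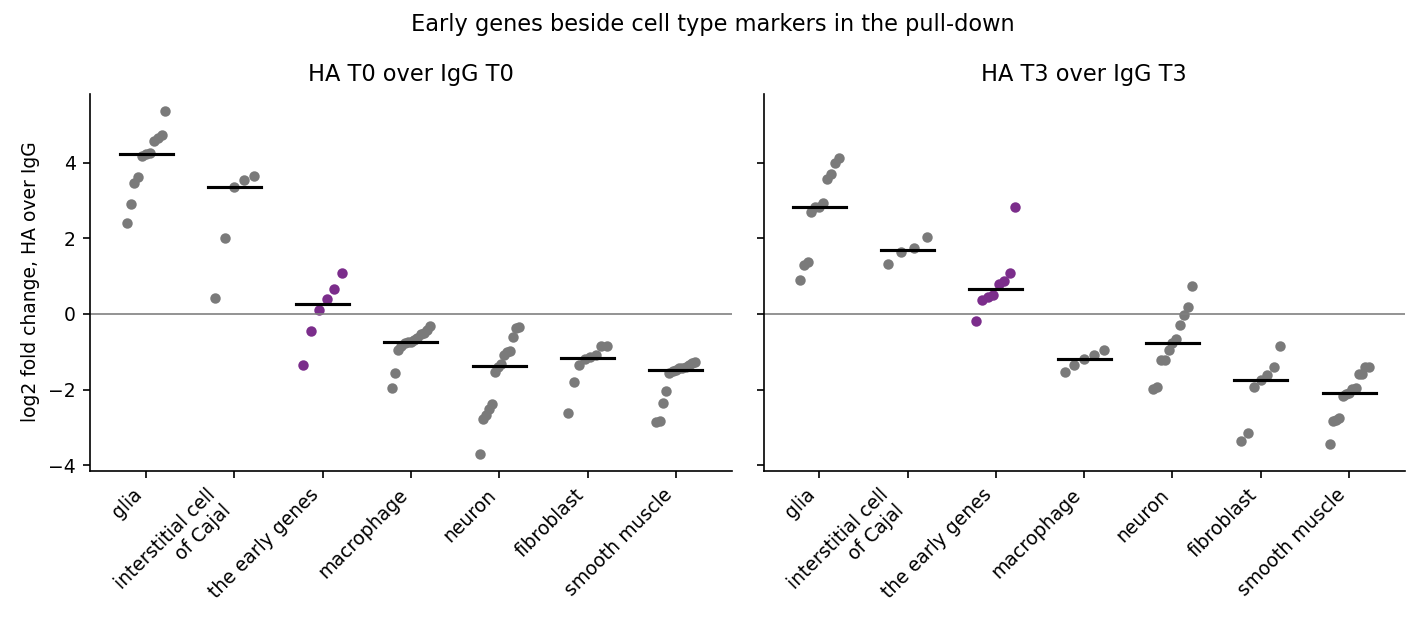
Log2 fold change of HA over IgG at T0 (left) and T3 (right) for the tested early genes (purple) and for tested markers of 6 cell types (grey), where 1 point is 1 gene and the black bar is the median of a list. The early genes (medians 0.26 and 0.65) lie below the glia markers (4.23 and 2.83) and above the smooth muscle markers (-1.49 and -2.10) at both times.

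A separate fit of all 12 libraries asked, by an interaction term, if the rise from T0 to T3 was larger in one pull-down. This fit, too, held no term for the animal. Ier3 was the only 1 of 9 genes tested to pass, beside 0.301% of the 10314 genes tested. Its change in HA exceeded that in IgG by 1.48 ± 0.33 on the log2 scale (adjusted p = 0.0480), beside a median of 0.18 over all genes. The direction could be seen in the animals: HA was below IgG at T0 in animals 1, 2 and 4 (ratios 0.742, 0.714 and 0.795) and above it at T3 in animals 1, 3 and 4 (2.56, 1.39 and 1.24). With the animal as a block the adjusted p was 0.00489. The call was lost in 13 of 18 alternatives, with adjusted p of 0.115 under RLE scaling, 0.204 with library totals and up to 0.213 when 1 library was left out, and the difference lay between 1.12 and 1.62 in all of them.

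Nr4a3 differed in the same direction by 1.37 ± 0.62 (unadjusted p = 0.0372, adjusted p = 0.453). For the other 7 genes the adjusted p lay between 0.666 and 0.950. Estimates ran from -1.76 ± 1.47 for Egr3, with no count in IgG T0, to 0.59 ± 0.42 for Ier2, so that for each of the 7 a difference of 2-fold between the pull-downs lay within 2 SE of the estimate.

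**Figure D5:**
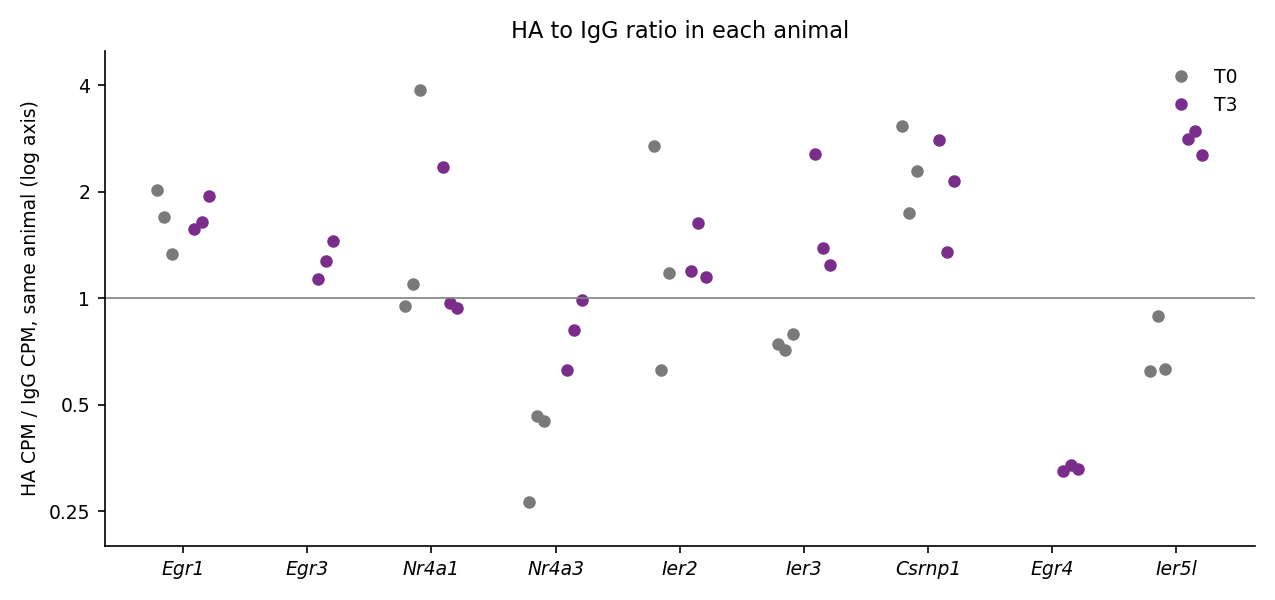
Ratio of HA CPM to IgG CPM in each animal at T0 (grey) and T3 (purple) on a log axis, for 7 early genes and for the relatives Egr4 and Ier5l; ratios with no count in IgG are left out. The Ier3 and Ier5l ratios lie below 1 in all T0 animals and above 1 in all T3 animals, and the Egr4 ratios at T3 lie at 0.325 to 0.338.

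The relatives and partners of these families were followed in the same way. Of the 10 on the list, 9 were in the table and 7 were tested in HA, where 3 were higher at T3 and none was lower, beside 18.7% and 15.1% of all genes tested. Of these 3, Egr4 passed the filter only with its T3 libraries, where it is high. Its HA T0 levels of 0 to 0.559 CPM lay below the cutoff of 6.09 CPM. Egr4, the fourth EGR gene, had 1, 1 and 0 counts at HA T0 and 9, 22 and 29 at HA T3 (log2 fold change 5.70 ± 0.67, adjusted p = 1.6e-06, ratio of summed counts 54.5 with a counting interval of 14.4 to 460.1). At T3 its level in HA was below that in IgG, with ratios of 0.325, 0.338 and 0.330 in the 3 animals (log2 difference -1.70 ± 0.53, adjusted p = 0.0259). That call was lost without HA T3 replicate 1 (adjusted p = 0.0940), without HA T3 replicate 3 (0.0695), without IgG T3 replicate 4 (0.542) and in a fit of all 12 libraries (0.0781). Egr4 passed the filter there only with its IgG libraries, as HA T3 replicate 1 stood at 7.37 CPM, below the cutoff of 13.6 CPM. After IgG, Egr4 had 0 counts at T0 and 23 at T3. The rise was 40.4-fold against the same floor, with a lower end of the counting interval of 30.3-fold.

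Ier5l, a relative of Ier5 that also has 1 exon, was well above the detection limit. It went from 17.7, 22.9 and 15.7 CPM to 192, 129 and 184 CPM in HA (log2 fold change 3.44 ± 0.23, 10.9-fold, adjusted p = 2.8e-10) and from 28.3, 25.7 and 24.8 CPM to 68.1, 43.5 and 72.4 CPM in IgG (1.28 ± 0.42, adjusted p = 0.0973). At T3 it was higher in HA than in IgG (1.46 ± 0.35, adjusted p = 0.00518). The interaction was 2.22 ± 0.45 (adjusted p = 0.0213), and it was lost in 9 of 18 alternatives, with adjusted p up to 0.123.

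Nab2, the corepressor that binds EGR proteins, rose from 23.4, 24.0 and 31.0 CPM to 49.1, 65.5 and 64.6 CPM in HA (1.46 ± 0.22, 2.75-fold, adjusted p = 4.4e-05), with 0.60 ± 0.44 in IgG (adjusted p = 0.468). The retinoid X receptors, with which Nr4a1 and Nr4a2 can pair, did not pass the test between the times in HA: Rxra was at 0.03 ± 0.21, Rxrb at 0.19 ± 0.18 and Rxrg at 0.49 ± 0.28. In the pull-down Rxrg had 21.1, 13.4 and 27.9 CPM in HA T0 against 2.58, 1.71 and 2.33 CPM in IgG T0 (3.18 ± 0.55, adjusted p = 0.000657). It passed the filter there only with its HA libraries, as its IgG levels lay below the cutoff of 6.49 CPM. At T3 it had 99 counts after HA and 0 after IgG, 3.54-fold higher against that floor, with a lower end of the counting interval of 2.82-fold. Ier3ip1, named for binding Ier3, was at 0.40 ± 0.20 between the times in HA (adjusted p = 0.130), and at T0 its level was lower in HA (-0.87 ± 0.22, adjusted p = 0.00782). Csrnp2 and Csrnp3, the relatives of Csrnp1, were not tested, and their summed HA counts at T3 over T0 had ratios of 3.21 (counting interval 1.56 to 6.90) and 0.519 (0.171 to 1.33).

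Kinases and transcription factors upstream of immediate early genes were for the most part not called at the RNA level. Of 15 tested in HA, 3 were higher and 1 was lower at T3, with a median log2 fold change of 0.24. These shares are near those of all genes tested, 18.7% higher and 15.1% lower, and are no result about the list. The 3 were Mapkapk2, a kinase downstream of p38 (1.48 ± 0.21, adjusted p = 1.6e-05), Crtc2, a coactivator of CREB (0.91 ± 0.19, adjusted p = 0.00108), and Rps6ka3, a kinase of the ERK pathway (1.57 ± 0.40, adjusted p = 0.00492). The lower one was Mkl2, a coactivator of serum response factor (-1.80 ± 0.49, adjusted p = 0.00746), and Srf itself was at 0.09 ± 0.20 (adjusted p = 0.760), both named after their values were seen. In IgG 2 of 12 were higher (Mapkapk2 and Crtc2), beside 4.43% of all genes tested, and 0 were lower. Whether genes of this list passed the filter through their T3 libraries alone was not checked.

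Over the 12 libraries, 9 members could be followed together on a log2(CPM + 1) scale. Each correlated with the mean of the other members at a Pearson r between 0.80 (Egr2) and 0.98 (Ier3), a description that rests largely on the gap between T0 and T3. Among 10305 other genes, the 8 most like the mean of the members were Sphk1 (r = 0.994), Jun, Nfkbia, Fosl1, Klf6, Ppp1r15a, Gadd45b and Ifrd1 (r = 0.986). Sphk1, sphingosine kinase, stood at 16.5 ± 2.63 CPM in HA T0, 956 ± 37.9 in HA T3, 12.0 ± 7.41 in IgG T0 and 501 ± 80.2 in IgG T3 (SD, n = 3). Nfkbia, the NF-kB inhibitor, went from 147 ± 28.7 to 3336 ± 424 CPM in HA and from 175 ± 71.2 to 2246 ± 199 CPM in IgG.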

How the data were processed

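RNA of HA and IgG pull-downs was sequenced from 12 libraries by a bulk form of MARS-seq, a 3′ method with molecular identifiers (UMIs). Per the labels and the study's methods, the authors used cutadapt for trimming, STAR 2.4.2a for mapping to mm10 and HTSeq for counting uniquely mapped reads in a window around each 3′ end that reached 1000 bases up and 100 down. Raw UMI counts per gene are what was deposited. Samples of similar cycle values were pooled, and pool membership and the use of strand are not given in the sources used here. Series and sample files held the same counts (0 differing values).

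The tests used edgeR 4.0.16 under R 4.3.3 (quasi-likelihood, robust, TMM scaling, filterByExpr, Benjamini-Hochberg over all genes tested, threshold 0.05). The 4 contrasts of 2 groups used 6 libraries each and the interaction all 12. None of these fits held a term for the animal. For HA against IgG and for the interaction, the animal entered only in the replicate block. CPM are counts scaled to library totals. SE were derived from the F statistic, and counting intervals are exact at 95%. These intervals rest on counts summed over the animals of a group, leave out the spread between animals and are therefore too narrow for it. The scripts were tested on simulated data. Alternatives were RLE scaling, library totals, no filter, at least 5 counts in 1 library, DESeq2 1.42.0, a fit of all 12 libraries, the replicate block and leaving out each library. HA and IgG libraries of the same number came from 1 animal, with correlations of their deviations from group means of 0.0746 to 0.265, while equal numbers at T0 and T3 are different animals. Replicates were separate mice.

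The members, gene lists and tests were chosen with earlier results of these data known. All members were named, likewise all tested relatives and partners, at most 3 genes of the upstream list with the smallest p, and the 8 genes most like the members. Promoters came from RefSeq (GRCm38.p6) and gene structures from Gencode on GRCm38.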

Additional observations from a re-analysis of the deposited data

Results flagged for a closer look

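Of the early genes and their relatives, 2 passed the interaction test of edgeR for a change with time that differed between the pull-downs. The median difference over all genes was 0.18. Neither call was stable: that of Ier3 was lost in 13 of 18 alternatives and that of Ier5l in 9 of 18. Ier3 had a difference of 1.48 on the log2 scale (HA minus IgG, adjusted p = 0.0480), with HA below IgG in 3 of 3 animals at T0 and above it in 3 of 3 at T3. The IgG T3 libraries behind this value held 44, 67 and 179 counts of Ier3. For Ier5l the difference was 2.22 (adjusted p = 0.0213), also with HA below IgG in 3 of 3 animals at T0 and above it in 3 of 3 at T3, and its IgG T3 libraries held 6, 4 and 18 counts. The summed smooth muscle markers moved from 0.359 times the IgG level in HA at T0 to 0.265 times at T3, and the glia markers from 19.1 to 6.42 times. The part of these shifts in either difference was not tested.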

How the results depend on the processing

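The 9 rises in HA kept their call and direction under all 13 alternatives. Over the members and the relatives and upstream genes named, 628 alternative values kept direction and side of the threshold, 42 lost the call, 6 gained one and 14 reversed. In a fit of all 12 libraries, members higher in IgG at T3 numbered 9 instead of 5, and at T0 1 was higher (Csrnp1) and 1 lower (Nr4a3) in HA than in IgG instead of 0. With the replicate block 1 member was lower in HA at T0 (Nr4a3), and leaving out 1 library gave 0 to 1. The block also ended the IgG call of Nr4a1 (adjusted p = 0.471), where equal numbers are different animals, and changed no other call of a member. Higher in HA at T3 were 2 of the members with library totals instead of 4, and 1 to 4 when 1 library was left out. The interaction called 0 members under RLE scaling and 0 with library totals instead of 1, and 0 to 1 with 1 library left out. Values that changed sign were not called: for HA over IgG at T0, Nr4a1 ranged from -0.0678 to 0.78 and Ier2 from -0.0962 to 0.63 with 1 library left out. At T3 Nr4a3 was at 0.0427 without a filter, at 0.0704 in the fit of all 12 and at -0.36 to 0.16 with 1 library left out. For the interaction, library totals gave -0.16 for Nr4a1 and -0.10 for Csrnp1, and leaving out 1 library gave -0.22 to 0.62 for Nr4a1 and -1.72 to 0.85 for Nr4a2. Calls over all genes moved by over 1.5 times in IgG T3 against T0 (285, from 162 to 705), in HA T3 against IgG T3 (1578, down to 849) and in the interaction (34, from 5 to 158). The cause was not tested. Depth limits the IgG T3 values most, where 3 counts are up to 34.0 CPM.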

Other observations

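The other classes of early genes moved at the same time. All 7 AP-1 genes tested were higher at T3 in HA (median log2 fold change 4.68) and all 6 tested in IgG (5.14). Of the other immediate early genes, 22 of 23 tested were higher in HA (3.42) and 16 of 18 in IgG (2.82). Over all genes tested, 18.7% were higher at T3 in HA and 4.43% in IgG. Genes of both lists could pass the filter through their T3 libraries alone, which was not checked for them. Npas4, a factor known from neurons, was the exception among the 23 in HA with 1.24 (adjusted p = 0.0635).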
